A study of Mus musculus with 8 samples.

Results

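Proximal tubule cells reclaim most of what the glomerulus filters, and 44 genes that carry out this work were followed here in isolated mouse glomeruli: receptors for protein uptake, transporters for phosphate, sulfate, sugars, organic anions and amino acids, a water channel, brush border hydrolases, metabolic enzymes and the enzymes of vitamin D. The genes were taken from a list by symbol, each through the probe set that carries that symbol alone and has the highest mean. Of the 44, 42 were measured, among 22180 genes in all, and Pdzk1 and Ggt1 had no such probe set. All 42 had a mean above the median gene mean of 4.92 (log2), and no filter on low values was applied. This list and the marker lists were chosen with earlier results of these data known, so shares set beside all genes are descriptive.

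The study measured 8 Affymetrix arrays of kidney glomerulus from mice 13 weeks old, all given doxycycline for 3 weeks from 8 weeks of age. The control group had 2 arrays (genotype control, with no further treatment named in the labels). The other groups carried Tln1 Pod-rtTA TetO-Cre, where the doxycycline-dependent activator is driven in podocytes, the filtering epithelial cells of the glomerulus; Tln1 encodes talin, a link between integrins and actin. After doxycycline these mice had 2 weeks of vehicle (3 arrays, Tln1 vehicle) or of valproic acid, a histone deacetylase inhibitor (3 arrays, Tln1 VPA). Tubule cells are therefore not the cells in which the Cre is driven. The labels do not say whether each array is a separate animal or a pool, so the tests measure the spread between these arrays, which may be technical. All values are levels on the log2 scale as deposited.

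Filtered proteins are taken up at the apical side by megalin and cubilin, while sodium-coupled transporters of the brush border carry phosphate, glucose and amino acids into the cell. The same cells secrete organic anions, make glucose from lactate and amino acids, form arginine and creatine precursors, and convert vitamin D to its active hormone. HNF4A and the HNF1 factors are known regulators of this gene programme in the kidney. In preparations of glomeruli these transcripts can come from tubule fragments carried along; in bulk RNA, fewer tubule cells and less RNA per tubule cell cannot be told apart.

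The arrays fell into 2 sets by correlation over 22086 genes outside the tubule lists. Control 1 and arrays 1 and 2 of both Tln1 groups formed the first set, and control 2, Tln1 vehicle 3 and Tln1 VPA 3 the second (r from 0.9901 to 0.9955 within sets and from 0.9665 to 0.9792 across them). Exactly equal deposited values were found for 1989 to 4340 of the 41345 probe sets in each of the 13 pairs within a set, and for 0 to 2 in each of the 15 pairs across sets. The labels name neither the sets nor separate processing runs, so the changes that the results turn on are also given within each set. The podocyte markers had means of 6.83 to 7.41 over first-set arrays and 7.89 to 8.41 over second-set arrays (15 of 18 measured), so podocyte transcripts were present in every preparation. Markers of the loop of Henle and distal nephron averaged 9.20 to 9.80 over the 8 arrays (16 of 16 measured), so transcripts of other tubule segments were present too. Y-linked transcripts averaged 4.85 to 7.00 in the 4 Tln1 arrays of the first set and 2.56 to 3.57 in the other 4 arrays (3 of 4 genes measured), while Xist stood between 7.38 and 10.94. The labels used here give no sex.

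The mean level of the 42 proximal tubule genes was 10.67 and 10.11 in control, 10.60, 10.67 and 9.37 in Tln1 vehicle and 10.39, 10.45 and 9.67 in Tln1 VPA arrays. The second-set array was lowest in every group. Of the 42 genes, 37 were higher in the first set in all 3 groups, against 49% of all genes, Dpp4 was lower there in all 3, and Slc5a1, Slc5a8, Slc22a6 and Cyp24a1 differed between groups. The median difference, first set minus second, was 0.79 for the 42 genes and 0.14 over all genes. The further proximal tubule genes, a list without any of the 42 (52 of 60 measured), averaged 9.02 to 9.50 over first-set arrays and 8.01 to 8.55 over second-set arrays, and so differed between the sets in the same direction.

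**Figure D1:**
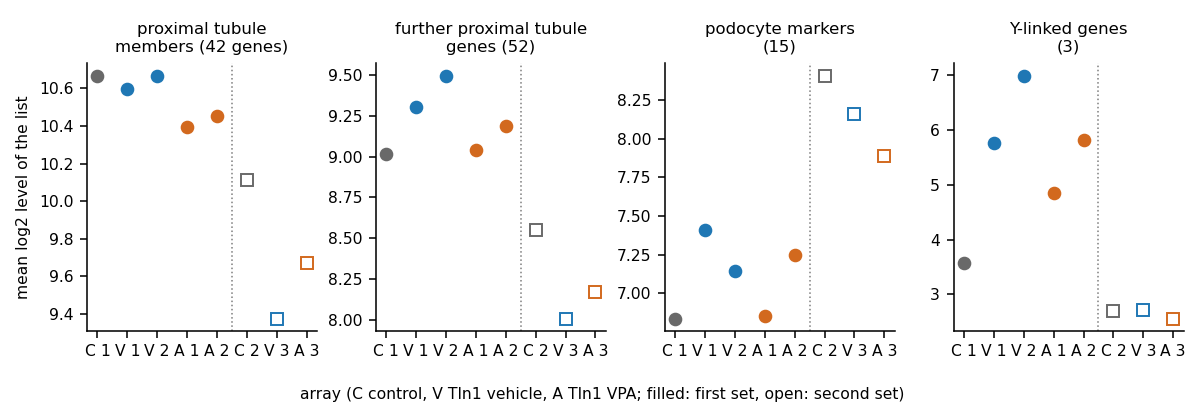
Mean log2 level (vertical axis) of the 42 proximal tubule genes, 52 further proximal tubule genes, 15 podocyte markers and 3 Y-linked genes in each of the 8 arrays (horizontal axis; filled circles first set, open squares second set). The 2 tubule panels are lower in the second set within every group and the podocyte panel is higher, while the Y-linked genes are highest in the 4 Tln1 arrays of the first set.

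**Figure D2:**
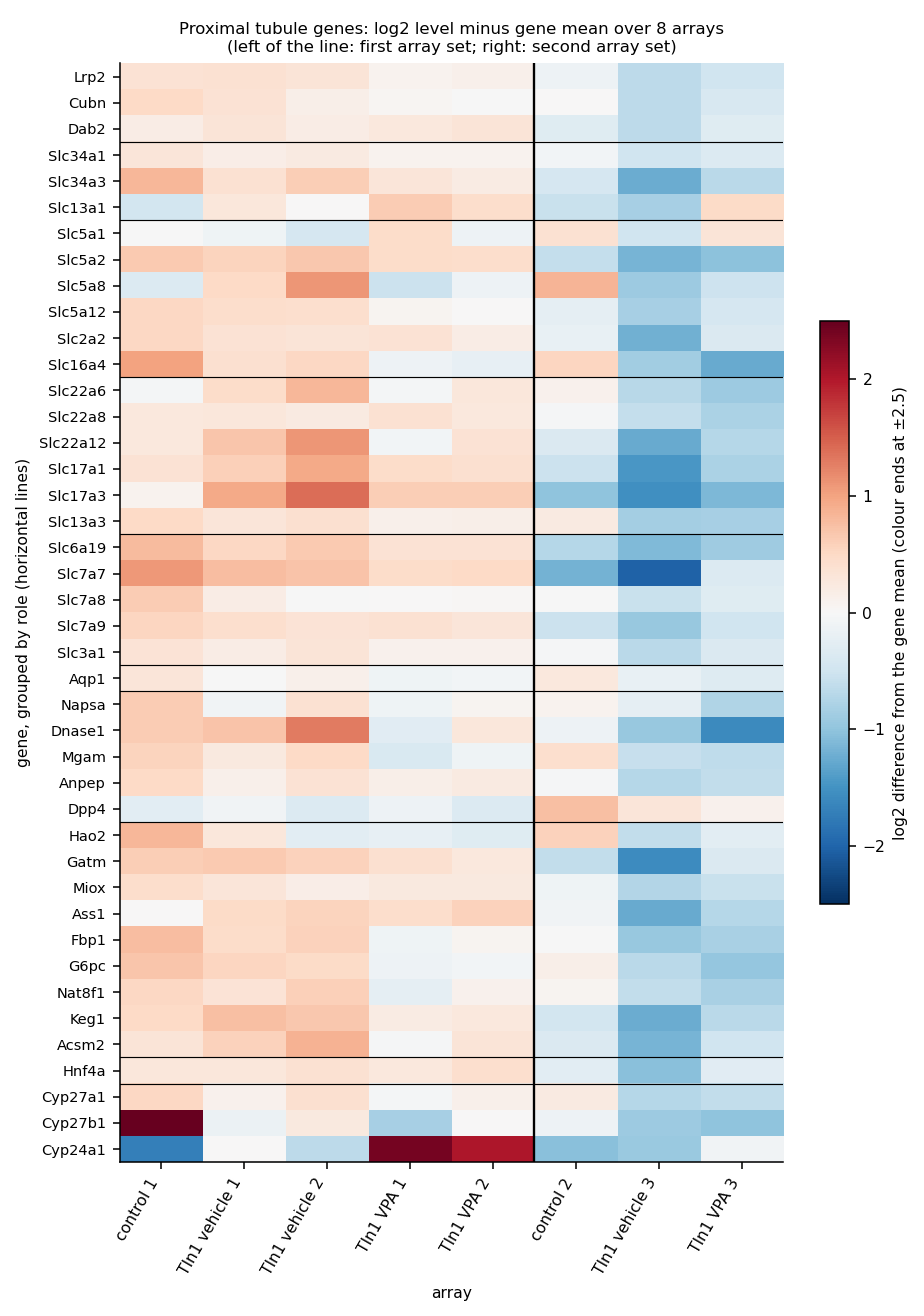
Log2 level minus the gene's mean over the 8 arrays for each of the 42 genes (rows, by role) in each array (columns, first set left of the line); the colour scale ends at ±2.5. Most rows are blue in the 3 columns of the second set, while Dpp4 is above its mean in all 3. Other exceptions include Hao2, Slc16a4 and Mgam in control 2 and Slc13a1 in Tln1 VPA 3. Cyp24a1 and Cyp27b1 have their extremes in Tln1 VPA arrays 1 and 2 and in control 1.

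A promoter entry of RefSeq (GRCm38.p6, 250 bases before to 50 after the start) was matched for 37 of the 42 genes; Slc13a1, Slc5a2, Slc5a12, Napsa and Cyp24a1 had none. HNF1 factors bind sites built on the letters GTTAAT, searched here on both strands (ATTAAC is the reverse complement). At least 1 window of the gene held the letters for 12 of the 37 genes (32.4%), for 3 of 37 further proximal tubule genes (8.11%) and for 2228 of all 27025 genes of the table (8.24%). Some genes have several windows: counted by window, the letters stood in 12 of 47 (25.5%), 3 of 41 (7.32%) and 2332 of 32851 (7.1%). The 12 genes were Dab2, Slc34a1, Slc22a6, Slc22a8, Slc7a7, Slc3a1, Dnase1, Hao2, Miox, G6pc, Acsm2 and Hnf4a. A match describes the letters and does not show a bound site. The 250 bases before the start are printed for 4 of them, a phosphate carrier, an anion exchanger, an oxidase and a glucose-releasing enzyme. Each of these 4 has 1 window, and its levels in every array are given with the results. Dnase1 and Hnf4a have such levels too, but 2 windows each. The sequences run 5′ to 3′ along the gene's strand, with the matches in capitals.
Slc34a1: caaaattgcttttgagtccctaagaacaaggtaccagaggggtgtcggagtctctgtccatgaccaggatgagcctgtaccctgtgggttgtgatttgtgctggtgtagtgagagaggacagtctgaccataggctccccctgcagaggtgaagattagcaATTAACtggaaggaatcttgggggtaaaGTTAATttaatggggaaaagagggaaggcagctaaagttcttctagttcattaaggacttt
Slc22a6: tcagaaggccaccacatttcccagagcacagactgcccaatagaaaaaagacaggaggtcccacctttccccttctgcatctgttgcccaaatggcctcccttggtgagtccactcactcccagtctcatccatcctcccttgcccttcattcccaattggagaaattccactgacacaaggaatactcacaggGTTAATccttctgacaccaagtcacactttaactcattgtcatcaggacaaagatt
Hao2: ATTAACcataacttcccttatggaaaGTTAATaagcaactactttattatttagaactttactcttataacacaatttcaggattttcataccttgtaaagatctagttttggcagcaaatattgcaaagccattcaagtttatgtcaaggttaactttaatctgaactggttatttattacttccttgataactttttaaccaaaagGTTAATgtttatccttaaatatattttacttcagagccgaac
G6pc: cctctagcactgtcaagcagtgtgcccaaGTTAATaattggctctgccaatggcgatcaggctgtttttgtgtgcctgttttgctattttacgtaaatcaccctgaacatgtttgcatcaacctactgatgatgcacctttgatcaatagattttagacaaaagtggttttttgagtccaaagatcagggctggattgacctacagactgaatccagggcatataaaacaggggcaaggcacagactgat
The Slc34a1 window lies at chr13:55399398-55399647 on the plus strand, with matches beginning 89 and 61 bases before the start. That of Slc22a6 lies at chr19:8617746-8617995 (plus strand) with its match 56 bases before the start, and that of G6pc at chr11:101367466-101367715 (plus strand) with its match 221 bases before it. The Hao2 window, chr3:98893231-98893480 on the minus strand, holds 3 matches, 250, 224 and 42 bases before the start.

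The first comparison, Tln1 vehicle against control, asks what differs in glomeruli of the Tln1 line. No proximal tubule gene passed the test: limma with Benjamini-Hochberg adjustment called 0 of the 42 and 0% of all 22180 genes at an adjusted p of 0.05. The genes nearest to it were Hao2, a peroxisomal oxidase of hydroxy acids, with a log2 change of -0.90 (SE 0.24), and Slc5a1, the high-affinity sodium-glucose cotransporter SGLT1, with -0.53 (SE 0.22). Fitted changes were below 0 in 32 of the 42 (76.2%, against 44.4% of all genes), with a median of -0.15 against 0.02 over all genes.

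At an unadjusted p under 0.05 this comparison held 2 of the 42 genes (4.76%, both lower), against 1.45% of all genes (0.672% lower). Vehicle and control arrays were fully separate for 5 of 42 (11.9%), against 8.37% of all genes (4.78% higher, 3.59% lower): Cyp24a1 was higher and Slc5a1, Slc16a4, Aqp1 and Hao2 were lower in Tln1 vehicle. The list's median depended on the sets and on single arrays. Within the first set it was -0.10, with 28 of 42 genes below 0 (51.8% of all genes). Within the second, with 1 array a group, it was -0.78, with 41 of 42 below 0 (44.1% of all genes). Without control 1 it was 0.03, and without Tln1 vehicle 3 it was 0.20, so that its sign turned. In both sets 28 of the 42 (66.7%) had a change below 0, against 22.5% of all genes.

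The second comparison, Tln1 VPA against Tln1 vehicle, asks what valproic acid treatment changes in that line. Here too limma called 0 of the 42 and 0% of all genes. The genes nearest to the threshold were Cyp24a1, the hydroxylase that inactivates vitamin D hormone, with a change of 1.96 (SE 0.62), Slc5a1 with 0.55 (SE 0.20), and Slc13a1, the sodium-sulfate cotransporter, with 0.69 (SE 0.27). An unadjusted p under 0.05 was reached by these 3 (7.14% of the 42) and by 1.26% of all genes (0.834% higher). Groups did not overlap for Slc13a1 alone (2.38%), against 3.55% of all genes (1.98% higher), a share no larger than that of the whole array.

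The median change over the list was -0.07, against 0.00 over all genes, with 28 of 42 below 0 (48.5% of all genes). Within the first set it was -0.23, with 35 of 42 genes below 0 (47.8% of all genes). Within the second it was 0.27, with 31 of 42 above 0 (44.2% of all genes), so the sets ran in opposite directions. Leaving out 1 array moved it between -0.48 and 0.16, with values above 0 without Tln1 vehicle 1, Tln1 vehicle 2 or Tln1 VPA 3. Dab2, Slc13a1, Slc5a1, Miox, Hnf4a and Cyp24a1 were above 0 in both sets (6 of 42, against 22.4% of all genes), and 10 of 42 (23.8%) were below 0 in both, against 20.4%.

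The third comparison, Tln1 VPA against control, shares its arrays with the other two and sets the treated line beside control glomeruli. Cyp24a1 and Slc13a1 were higher, and Hao2, Aqp1 (the water channel of the proximal tubule), Mgam (maltase-glucoamylase of the brush border), Slc16a4 (a monocarboxylate transporter) and Cyp27b1 (the enzyme that makes vitamin D hormone) were lower at an unadjusted p under 0.05. These 7 of 42 (16.7%, 2 higher and 5 lower) stand beside 1.87% of all genes (1.23% higher, 0.64% lower). After adjustment limma called 0 of 42 and 0% of all genes. Groups did not overlap for 10 of 42 (23.8%), against 9.55% of all genes.

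Those 10 were Slc13a1 and Cyp24a1, higher in Tln1 VPA, and Slc16a4, Slc13a3, Aqp1, Napsa, Mgam, Hao2, G6pc and Cyp27a1, lower. The lower ones are 8 of 42, against 3.98% of all genes, and the higher ones 2 of 42, against 5.57%. The median was -0.21, against 0.02 over all genes, with 31 of 42 below 0 (43.2% of all genes). By set it was -0.27 (first) and -0.39 (second). In both sets 28 of 42 (66.7%) were below 0, against 22.9% of all genes. Without control 1 the median was -0.00, and without Tln1 VPA 3 it was -0.02.

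With the Y-linked mean of each array as a covariate, limma called 5 of 42 lower in Tln1 VPA than in control, and 0.0947% of all genes: Dnase1 (-1.49, adjusted p = 0.0316), Slc16a4 (-1.74, adjusted p = 0.0316), Mgam (-1.13, adjusted p = 0.0436), Nat8f1 (-0.96, adjusted p = 0.0473) and Cyp27a1 (-0.87, adjusted p = 0.0489). The array set and the Y-linked covariate together left Dnase1 alone (-1.42, adjusted p = 0.0355), beside 0.00902% of all genes. A fit that blocks on array set, with no covariate, called 0 of 42 and 0% of all genes in each of the 3 comparisons. Its lowest adjusted p among the 42 for Tln1 VPA against control was 0.180, for Slc16a4. With the further proximal tubule mean of each array as a covariate, limma also called 0 of 42 and 0% of all genes in each. A replicate block in Tln1 VPA against control, on the 4 arrays with shared numbers, called Cyp24a1 and Slc13a1 (2 of 42, beside 0.528% of all genes). It pairs control 2 of the second set with Tln1 VPA 2 of the first. It also leaves out Tln1 VPA 3, where Cyp24a1 was lowest of its group.

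**Figure D3:**
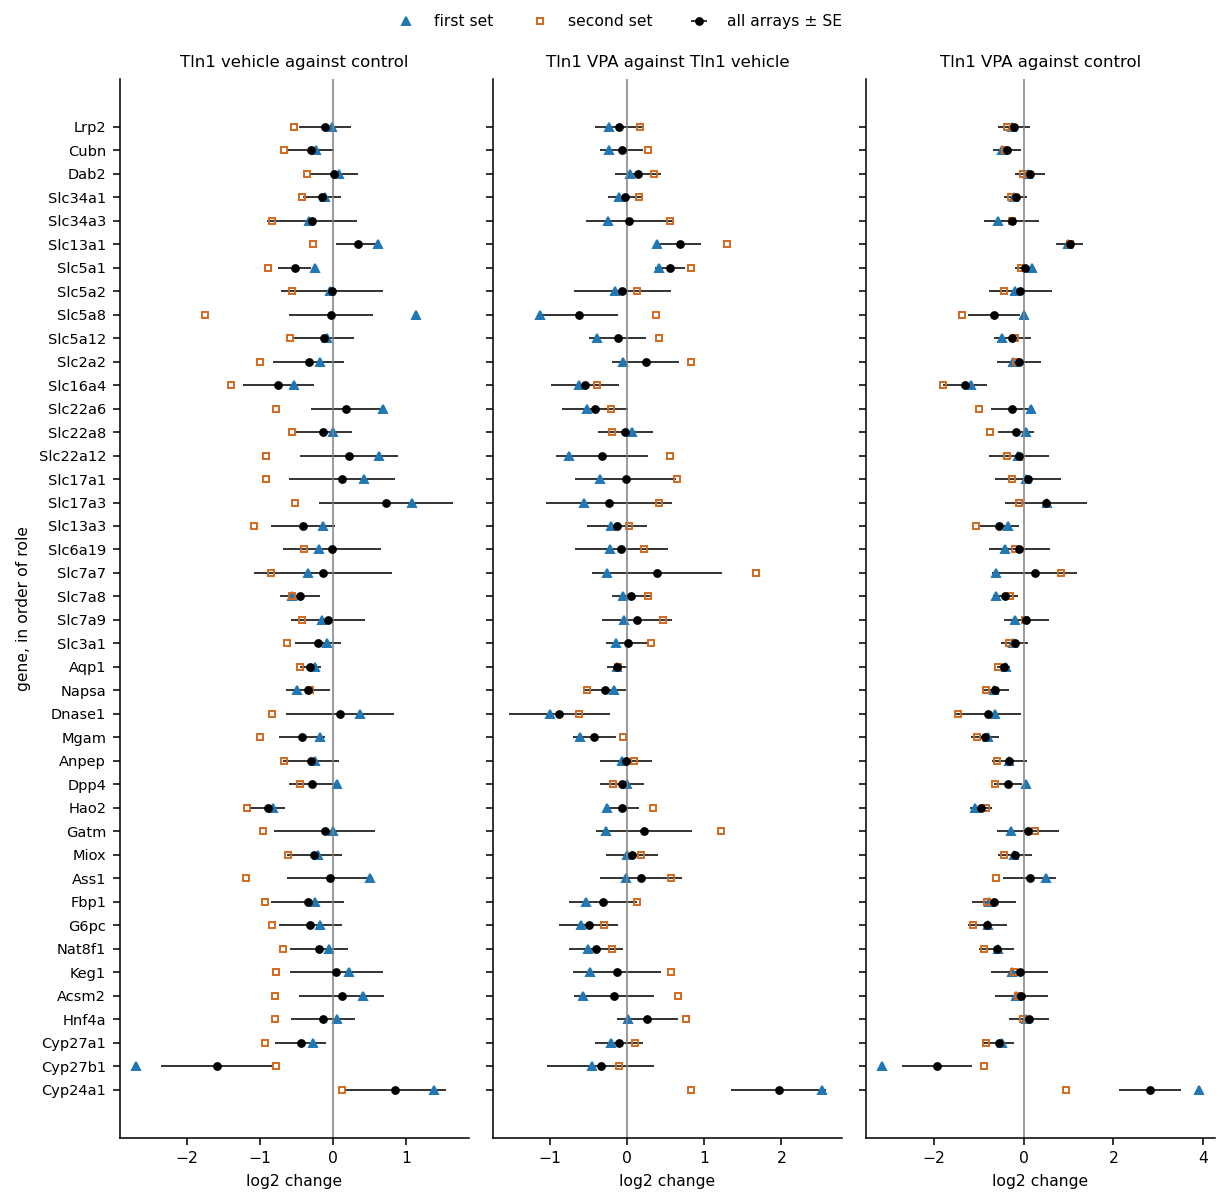
Log2 change (horizontal axis) of each of the 42 genes (vertical axis, by role) in the 3 comparisons: black points with bars are fitted changes over all arrays ± SE, blue triangles the first set and open orange squares the second. In the left panel 41 of 42 squares are below 0, in the middle panel squares and triangles often stand on opposite sides of 0, and in the right panel Cyp24a1 and Slc13a1 stand to the right in both sets.

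Among the uptake proteins, Lrp2 (megalin), the large receptor that brings filtered proteins and vitamin D carriers into the cell, stood at 12.45 and 11.97 in control, 12.46, 12.41 and 11.42 in Tln1 vehicle and 12.18, 12.20 and 11.59 in Tln1 VPA arrays. Cubn (cubilin), its partner for albumin and vitamin B12, stood at 11.62 and 11.15 in control, 11.48, 11.28 and 10.47 in Tln1 vehicle and 11.17, 11.12 and 10.74 in Tln1 VPA arrays. In both genes the second-set array was lowest in its group, the groups overlapped, and no change passed the test. Dab2, the adaptor that links megalin to clathrin, ranged from 10.18 to 11.16. It too was lowest in the second-set array of each group.

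Of the phosphate carriers, Slc34a1 (NaPi-IIa) stood at 13.34 and 12.97 in control, 13.20, 13.26 and 12.54 in Tln1 vehicle and 13.11, 13.12 and 12.70 in Tln1 VPA arrays. Slc34a3 (NaPi-IIc) stood at 8.81 and 7.57 in control, 8.37, 8.59 and 6.73 in Tln1 vehicle and 8.28, 8.19 and 7.30 in Tln1 VPA arrays. Control 1 was highest and Tln1 vehicle 3 lowest for both, and the groups overlapped; Slc34a1 is the gene with matches at 89 and 61 bases before its start.

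The sulfate cotransporter Slc13a1 stood at 11.02 and 10.93 in control, 11.77, 11.50 and 10.65 in Tln1 vehicle and 12.11, 11.93 and 11.95 in Tln1 VPA arrays. All 3 Tln1 VPA arrays lay above every other array, and Tln1 vehicle 3 was lowest. The change was 1.02 (SE 0.30) against control, 2.03-fold, and 0.69 (SE 0.27) against Tln1 vehicle, each with an adjusted p of 1.00 by limma. Against control the first set gave 1.00 and the second 1.03; against Tln1 vehicle they gave 0.38 and 1.30. Without Tln1 vehicle 3 the change against Tln1 vehicle was 0.36.

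Among the sugar and monocarboxylate carriers, Slc5a1 (SGLT1) stood at 7.58 and 7.98 in control, 7.49, 7.18 and 7.09 in Tln1 vehicle and 8.04, 7.46 and 7.91 in Tln1 VPA arrays. All Tln1 vehicle arrays were below both controls, and Tln1 VPA 2 lay just below Tln1 vehicle 1. Its change was -0.53 (SE 0.22; first set -0.24, second -0.90) in Tln1 vehicle against control and 0.55 (SE 0.20; first set 0.42, second 0.83) in Tln1 VPA against Tln1 vehicle. Both comparisons use the same Tln1 vehicle arrays, so the opposite signs are not 2 independent results. Each had an adjusted p of 1.00. Without control 2 the change against control was -0.32.

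Slc5a2 (SGLT2), the low-affinity carrier that reabsorbs most filtered glucose, stood at 12.02 and 10.77 in control, 11.92, 12.03 and 10.20 in Tln1 vehicle and 11.83, 11.81 and 10.33 in Tln1 VPA arrays. Its groups overlapped, and the second-set array was lowest in every group. Slc16a4, a monocarboxylate transporter, stood at 10.10 and 9.64 in control, 9.50, 9.62 and 8.24 in Tln1 vehicle and 8.97, 8.90 and 7.84 in Tln1 VPA arrays. Both Tln1 groups lay below both controls, with Tln1 vehicle 2 just under control 2. The change against control was -0.75 (SE 0.49) in Tln1 vehicle (first set -0.54, second -1.40) and -1.30 (SE 0.49) in Tln1 VPA, where the first set gave -1.16 and the second -1.79. Without Tln1 vehicle 3 the Tln1 vehicle change was -0.31.

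The other 3 of this role were Slc5a8 and Slc5a12, sodium-coupled lactate carriers, and Slc2a2, the basolateral glucose exit carrier. Slc5a8 ranged from 8.16 to 10.15, Slc5a12 from 10.82 to 12.17 and Slc2a2 from 9.53 to 11.24, with overlapping groups in all 3 comparisons. By its set means, Slc5a8 was lower in the first set than the second for control and higher for both Tln1 groups.

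Organic anion carriers take drugs and metabolites from the blood into the cell. Slc22a6 (OAT1) stood at 11.11 and 11.25 in control, 11.61, 11.97 and 10.46 in Tln1 vehicle and 11.11, 11.42 and 10.25 in Tln1 VPA arrays. Slc22a12 (URAT1), which reabsorbs urate, stood at 10.89 and 10.27 in control, 11.32, 11.73 and 9.36 in Tln1 vehicle and 10.55, 10.98 and 9.91 in Tln1 VPA arrays. Tln1 vehicle 2 was highest for both, the lowest array was from the second set, and the groups overlapped. The match in the Slc22a6 window is the one 56 bases before its start.

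Slc22a8 (OAT3) ranged from 11.26 to 12.43, and Slc13a3, a dicarboxylate carrier, from 10.21 to 11.55. The urate and phosphate carriers Slc17a1 and Slc17a3 ranged from 8.82 to 11.22 and from 8.42 to 11.34. Tln1 vehicle 2 had the highest level for Slc22a6, Slc22a12, Slc17a1 and Slc17a3, 4 of the 9 genes among the 42 that were highest there, while control 1 was highest for 22. That array also had the highest Y-linked mean, 7.00, and the lowest Xist level, 7.38. The part of sex in these levels was not tested. Over the 6 genes of this role the changes ran from -0.41 to 0.73 in Tln1 vehicle against control, with 4 above 0. First-set changes ran from -0.14 to 1.08 and second-set changes from -1.08 to -0.52.

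For the amino acid carriers, Slc6a19 (B0AT1), the main carrier of neutral amino acids, stood at 10.83 and 9.34 in control, 10.56, 10.71 and 8.94 in Tln1 vehicle and 10.40, 10.41 and 9.16 in Tln1 VPA arrays. Slc7a9, the light chain of the cystine carrier, stood at 9.92 and 8.85 in control, 9.81, 9.71 and 8.42 in Tln1 vehicle and 9.75, 9.68 and 8.89 in Tln1 VPA arrays. Control 1 was highest and Tln1 vehicle 3 lowest for both. Slc7a8, the basolateral exchanger LAT2, stood at 12.61 and 11.96 in control, 12.15, 11.95 and 11.40 in Tln1 vehicle and 11.98, 12.00 and 11.67 in Tln1 VPA arrays. Tln1 vehicle 1 lay above control 2, so the groups overlapped, and the change in Tln1 vehicle against control was -0.45 (SE 0.27), with -0.56 in each set. It was -0.13 without control 1, -0.24 without Tln1 vehicle 3 and -0.77 without control 2, so single arrays set its size.

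Slc3a1, the heavy chain that pairs with Slc7a9, ranged from 10.55 to 11.55, and Slc7a7, an exit carrier of basic amino acids, from 8.94 to 12.05. In all 5 amino acid genes the second-set array was the lowest of its group. For Tln1 vehicle against control, first-set changes of the 5 ran from -0.56 to -0.08 and second-set changes from -0.84 to -0.40.

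Aqp1, which also lies in other kidney cells such as the thin descending limb, stood at 10.39 and 10.34 in control, 10.07, 10.20 and 9.89 in Tln1 vehicle and 9.98, 10.02 and 9.76 in Tln1 VPA arrays. Both Tln1 groups were below both controls in every array, and the 2 Tln1 groups overlapped. The change was -0.31 (SE 0.14) in Tln1 vehicle and -0.44 (SE 0.14) in Tln1 VPA against control, each with an adjusted p of 1.00. For Tln1 vehicle the first set gave -0.25 and the second -0.45, and for Tln1 VPA they gave -0.39 and -0.58. Its range over the 8 arrays, 0.63, was the smallest of the 42.

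Among the hydrolases, Dpp4, a peptidase that removes dipeptides, stood at 9.58 and 10.60 in control, 9.76, 9.51 and 10.15 in Tln1 vehicle and 9.74, 9.52 and 9.97 in Tln1 VPA arrays. It was the one gene of the 42 that was higher in the second set in all 3 groups. Mgam, the maltase-glucoamylase, stood at 9.07 and 8.93 in control, 8.77, 9.02 and 7.94 in Tln1 vehicle and 8.14, 8.42 and 7.89 in Tln1 VPA arrays. All Tln1 VPA arrays were below both controls, while Tln1 vehicle 2 reached into the control range. The change in Tln1 VPA was -0.86 (SE 0.31) against control (first set -0.79, second -1.05) and -0.43 (SE 0.28) against Tln1 vehicle (first set -0.61, second -0.05). The latter was -0.21 without Tln1 vehicle 2 and -0.75 without Tln1 vehicle 3.

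Dnase1, a secreted nuclease, stood at 11.70 and 10.93 in control, 11.77, 12.36 and 10.10 in Tln1 vehicle and 10.78, 11.34 and 9.47 in Tln1 VPA arrays. Its groups overlapped in each comparison, with Tln1 vehicle 2 highest and Tln1 VPA 3 lowest. The change in Tln1 VPA against Tln1 vehicle was -0.88 (SE 0.66; first set -1.01, second -0.63). Leaving out Tln1 VPA 3 gave -0.35, leaving out Tln1 vehicle 2 gave -0.41 and leaving out Tln1 vehicle 3 gave -1.53. Napsa, an aspartic protease, ranged from 9.04 to 10.44, and Anpep, aminopeptidase N, from 9.32 to 10.53. All 5 hydrolases had changes below 0 in Tln1 VPA against control, from -0.86 to -0.32.

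The enzyme Hao2 stood at 10.58 and 10.32 in control, 10.04, 9.48 and 9.14 in Tln1 vehicle and 9.55, 9.44 and 9.48 in Tln1 VPA arrays. Every Tln1 array lay below both controls, and the 2 Tln1 groups overlapped. The change was -0.90 (SE 0.24) in Tln1 vehicle and -0.96 (SE 0.24) in Tln1 VPA against control, a level 1.86-fold and 1.94-fold lower, each with an adjusted p of 1.00. For Tln1 vehicle the first set gave -0.82 and the second -1.18, and for Tln1 VPA they gave -1.08 and -0.84. With 1 array left out it stayed between -1.14 and -0.69 in Tln1 vehicle, and between -1.08 and -0.83 in Tln1 VPA. Hao2 is the gene with 3 matches in its window.

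Gluconeogenesis was represented by Fbp1 (fructose-bisphosphatase), at 11.71 and 10.95 in control, 11.41, 11.52 and 10.01 in Tln1 vehicle and 10.84, 11.03 and 10.13 in Tln1 VPA arrays. G6pc, which releases free glucose, stood at 11.95 and 11.42 in control, 11.80, 11.74 and 10.59 in Tln1 vehicle and 11.13, 11.21 and 10.29 in Tln1 VPA arrays. All Tln1 VPA arrays were below both controls for G6pc, whereas Tln1 VPA 2 reached above control 2 for Fbp1. The G6pc change in Tln1 VPA against Tln1 vehicle was -0.50 (SE 0.38; first set -0.60, second -0.30). Leaving out Tln1 VPA 3 gave -0.21, and leaving out Tln1 vehicle 1, 2 or 3 gave -0.29, -0.32 or -0.89. Gatm, the enzyme that forms the creatine precursor guanidinoacetate, stood at 11.74 and 10.50 in control, 11.77, 11.69 and 9.55 in Tln1 vehicle and 11.52, 11.39 and 10.76 in Tln1 VPA arrays. Its groups overlapped, and the second-set array was lowest in each.

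The other metabolic enzymes were Miox (myo-inositol oxygenase), from 11.58 to 12.76, Ass1 (argininosuccinate synthase), from 4.11 to 5.96, Acsm2 (a medium-chain acyl-CoA ligase), from 10.74 to 12.78, Nat8f1 from 6.96 to 8.35 and Keg1 from 10.45 to 12.45. Each was lower in the second set in all 3 groups, and the groups overlapped in each comparison. Over the 9 enzymes, changes ran from -0.96 to 0.14 in Tln1 VPA against control, with 7 below 0.

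Hnf4a, the nuclear receptor that drives much of this programme, stood at 10.70 and 10.16 in control, 10.70, 10.80 and 9.37 in Tln1 vehicle and 10.69, 10.83 and 10.13 in Tln1 VPA arrays. The second-set array was lowest in each group, and the groups overlapped. Its change ran from -0.14 in Tln1 vehicle against control to 0.26 in Tln1 VPA against Tln1 vehicle, neither with an adjusted p below 1.00.

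Of the hydroxylases, Cyp24a1, which breaks down active vitamin D, stood at 7.92 and 8.58 in control, 9.63, 8.96 and 8.70 in Tln1 vehicle and 12.02, 11.65 and 9.53 in Tln1 VPA arrays. Tln1 VPA arrays 1 and 2 were far above all others, and Tln1 VPA 3 lay between Tln1 vehicle arrays 1 and 2. The change in Tln1 VPA was 2.81 (SE 0.69) against control, 7.03-fold, and 1.96 (SE 0.62) against Tln1 vehicle, 3.90-fold, each with an adjusted p of 1.00. Against control the first set gave 3.91 and the second 0.95; against Tln1 vehicle they gave 2.53 and 0.83. Its range of 4.10 over the arrays was the largest of the 42.

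Cyp27b1, the enzyme that makes the active hormone, stood at 9.07 and 6.20 in control, 6.18, 6.56 and 5.41 in Tln1 vehicle and 5.49, 6.34 and 5.31 in Tln1 VPA arrays. Control 1 was far above all others, and control 2 lay within the range of Tln1 vehicle. The change against control was -1.58 (SE 0.78; first set -2.70, second -0.79) in Tln1 vehicle and -1.92 (SE 0.78; first set -3.16, second -0.89) in Tln1 VPA. Without control 1 these were -0.15 and -0.49, so both rest on that array. Without control 2 they were -3.02 and -3.36.

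Cyp27a1, a sterol hydroxylase of the mitochondrion, stood at 8.14 and 7.85 in control, 7.73, 8.01 and 6.91 in Tln1 vehicle and 7.58, 7.74 and 7.01 in Tln1 VPA arrays. All Tln1 VPA arrays were below both controls, and Tln1 vehicle 2 lay above control 2. Cyp27a1 and Cyp27b1 were higher in the first set in all 3 groups, as most of the 42 were, and Cyp24a1 was not.

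**Figure D4:**
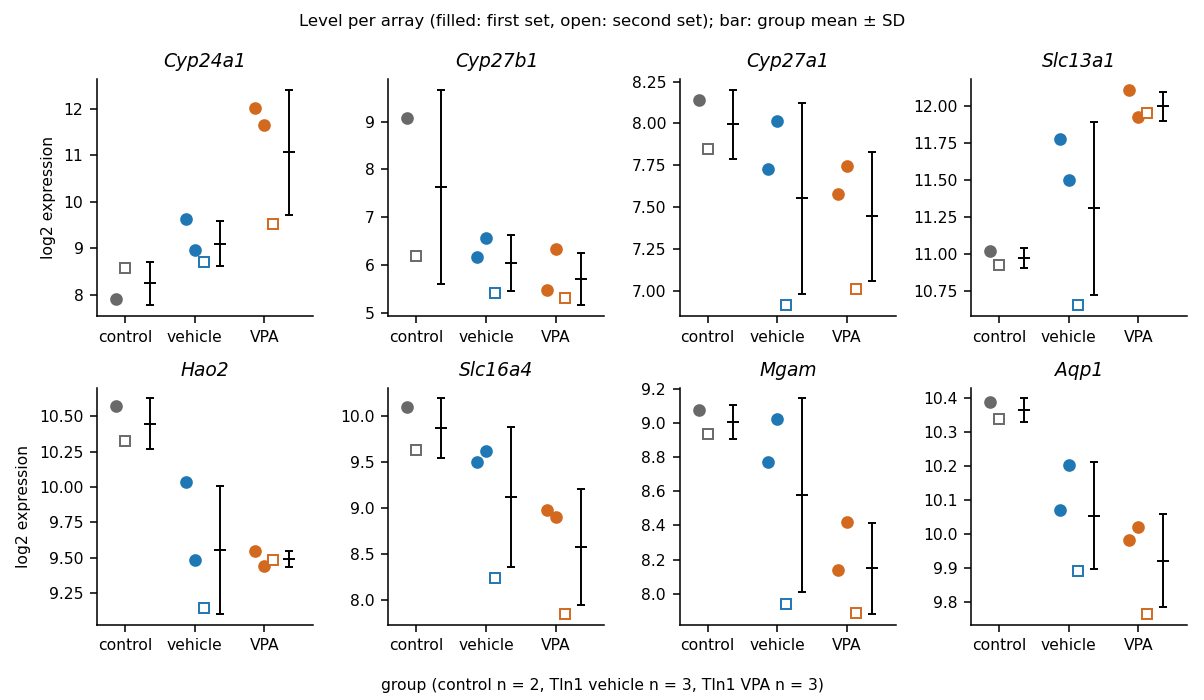
Log2 level per array (vertical axis) of 8 proximal tubule genes in control (n = 2), Tln1 vehicle (n = 3) and Tln1 VPA (n = 3); filled circles are the first set, open squares the second, and black bars the group mean ± SD. Slc13a1 is highest in all 3 Tln1 VPA arrays, Hao2, Slc16a4 and Aqp1 are highest in the 2 controls, and Cyp27b1 is set apart by control 1.

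Markers of injured tubule are given beside these values. Of 9 measured (of 10 listed), 9 were above 0 in Tln1 VPA against control, against 56.8% of all genes. Of these 9 markers, 6 were higher at an unadjusted p under 0.05, against 1.23% of all genes, while limma called 0. Their mean level was 5.53 to 5.68 in control, 5.63 to 6.19 in Tln1 vehicle and 6.52 to 6.76 in Tln1 VPA arrays. Havcr1 (KIM-1), the defining marker of injured proximal tubule, stood at 3.46 and 3.07 in control, 5.23, 4.03 and 3.20 in Tln1 vehicle and 6.53, 6.21 and 3.99 in Tln1 VPA arrays. It was highest in Tln1 VPA arrays 1 and 2, as were Clu and Krt20. Vcam1 was highest in Tln1 VPA 1 and Timp1 in Tln1 VPA 2. Lcn2, Sox9 and Cd44 were highest in Tln1 VPA 3, and Vim in Tln1 vehicle 3. The part of tubular injury in the change of any of the 42 genes was not tested.

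Macrophage markers averaged 4.94 to 4.97 in control, 4.57 to 5.22 in Tln1 vehicle and 4.77 to 5.77 in Tln1 VPA arrays (10 of 10 measured). Of these, 10 were above 0 in Tln1 VPA against Tln1 vehicle, against 51.3% of all genes. An unadjusted p under 0.05 was reached by 2 of them, against 0.834% of all genes (higher), and limma called 0. The part of macrophages in the results was not tested.

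Markers of glomerular endothelium averaged 8.34 to 9.02 in control, 8.46 to 9.36 in Tln1 vehicle and 8.49 to 8.66 in Tln1 VPA arrays (10 of 10 measured). Of these, 8 were above 0 in Tln1 vehicle against control (55.6% of all genes), with a median of 0.34. The first set alone, however, gave -0.11 and the second 1.05. In Tln1 VPA against Tln1 vehicle 9 of the 10 were below 0 (48.5% of all genes), with a median of -0.36. Markers of mesangium and smooth muscle averaged 6.50 to 6.77 in control, 6.91 to 7.24 in Tln1 vehicle and 6.78 to 6.89 in Tln1 VPA arrays (9 of 10 measured). Of these, 8 were above 0 in Tln1 vehicle against control, against 55.6% of all genes. The median was 0.39, with -0.205 by the first set and 0.74 by the second. In Tln1 VPA against Tln1 vehicle 8 were below 0 (48.5% of all genes), with a median of -0.24. Limma called 0 of both lists in each comparison. At an unadjusted p under 0.05, 1 endothelial and 3 mesangial markers were higher in Tln1 vehicle against control (0.78% of all genes). In Tln1 VPA against Tln1 vehicle 2 and 1 were lower (0.428% of all genes). Both comparisons use the same Tln1 vehicle arrays, and the part of these cells in the levels of the 42 genes was not tested.

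The further proximal tubule genes gave the wider pathway. In Tln1 vehicle against control 33 of 52 were below 0 (44.4% of all genes), with a median of -0.13 (first set 0.02, second -0.69). Tln1 VPA against Tln1 vehicle had 32 of 52 below 0 (48.5%), with a median of -0.06 (first set -0.22, second 0.20). Tln1 VPA against control had 34 of 52 below 0 (43.2%), with a median of -0.14 (first set -0.10, second -0.34). In the first 2 comparisons the sign of the median differed between the sets. Limma called 0 of 52 in each, and at an unadjusted p under 0.05 there were 2, 0 and 2, all lower. Over all genes the shares lower at that p were 0.672%, 0.428% and 0.64%. Hpd, a dioxygenase of tyrosine breakdown, stood at 10.37 and 10.99 in control, 8.74, 7.39 and 9.78 in Tln1 vehicle and 8.05, 8.07 and 9.08 in Tln1 VPA arrays. Every Tln1 array was below both controls, with a change of -2.04 (SE 0.65) in Tln1 vehicle and -2.28 (SE 0.65) in Tln1 VPA. Unlike most of the 42, Hpd was higher in the second set in all 3 groups. Kynu, kynureninase of tryptophan breakdown, had changes of -1.05 and -0.88 against control, and Slc22a13 had -0.51 and -0.47.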

How the data were processed

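RNA of isolated glomeruli was hybridised to 8 Affymetrix arrays. The deposited values are log2 expression levels; RMA and limma are named in the submitters' processing notes, with no versions. The values (1.49 to 13.9) were used as deposited. Of 41345 probe sets, 23521 carried 1 gene symbol, 1814 several and 16010 none; the probe set with the highest mean stood for each of 22180 genes. One limma fit (version 3.58.1, R 4.3.3; lmFit and eBayes, group as the only factor, all 8 arrays) gave the 3 comparisons, two-sided, with Benjamini-Hochberg adjustment over all genes at 0.05. It was tested on simulated data. Python 3.11.15, pandas 2.3.3 and matplotlib 3.10.9 made the tables and figures.

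The members and lists were chosen with earlier results of these data known. Their shares set beside those of all genes are therefore descriptive and no independent support. Values in every array are given for the 6 members with the smallest p in each comparison and for members preset for each role. No member was called in the fit over all arrays, and Nat8f1, called with the Y-linked covariate, is given by its range. Of the further proximal tubule genes among the 3 smallest p, Hpd is given in every array. Kynu and Slc22a13 are given by their changes against control. Slc6a20b, Slc22a30 and Gda, from Tln1 VPA against Tln1 vehicle, are not described. Arrays with the same number in the Tln1 groups deviated together (r = 0.570, 0.609 and 0.787), which follows the array sets; the labels state no pairing. Control and Tln1 arrays did not pair by number (r = 0.609 and -0.591 with Tln1 vehicle, 0.593 and -0.496 with Tln1 VPA). The alternatives covered the probe set rule, filters, scaling, array set, replicate number, covariates and single arrays; 2 of them, the level relative to the further proximal tubule mean and the array set with the Y-linked covariate, were chosen after seeing the data. The number of arrays limits the precision.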

Additional observations from a re-analysis of the deposited data

How the results depend on the processing

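Members called stayed at 0 in Tln1 vehicle against control and in Tln1 VPA against Tln1 vehicle under every alternative run, and in Tln1 VPA against control under all but 3. There, 5 members were called with the Y-linked mean as a covariate and 1 with the array set as well. That covariate overlaps with group and array set, so these fits cannot separate them. The replicate block, which uses only the 4 arrays with shared numbers there, called 2: Cyp24a1 (3.58, adjusted p = 2.23e-08) and Slc13a1 (1.04, adjusted p = 0.0309), beside 0.528% of all genes. The labels state no pairing. This block pairs control 2 with Tln1 VPA 2 across the array sets (r = -0.496) and leaves out Tln1 VPA 3, the Tln1 VPA array lowest for Cyp24a1. Its calls therefore rest on a pairing that the array sets cross. The replicate block changed the call of no other of the 42 members in any comparison. It called 52 of all genes (0.234%) in Tln1 vehicle against control. Leaving out each Tln1 array in turn gave 0 members called in the comparisons that use it. The share of all genes called is not given for these fits. Their 0 therefore does not set the members apart from all genes. The array set block and the Y-linked covariate called 0% of all genes too in Tln1 vehicle against control and in Tln1 VPA against Tln1 vehicle. Leaving out a control array leaves 1 in that group, so only changes are given for it. The median change of members in Tln1 vehicle against control was -0.78 in the second set alone and -0.77 with the Y-linked covariate, and -0.47 to 0.20 with 1 array left out. Without 1 array it ran from -0.48 to 0.16 in Tln1 VPA against Tln1 vehicle and from -0.49 to -0.00 in Tln1 VPA against control. With the further proximal tubule mean as a covariate, the median was -0.29 in Tln1 vehicle against control. In Tln1 VPA against Tln1 vehicle it was 0.04 with that covariate and -0.07 without, so its sign turned. Levels relative to the further proximal tubule mean gave -0.30 and 0.07 in these 2 comparisons. The cause was not tested. The 18 changes of the 6 members with the smallest p in each comparison kept their direction in 366 of 366 recomputed values. These members were picked on the same arrays, and several alternatives leave the fitted change as it was. The count of kept directions is therefore no independent support. Limits are the 2 control arrays, a second set with 1 array a group, and set levels that may come from separate processing runs.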

Other observations

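Among the further proximal tubule genes, 3 with wide ranges were chosen after their values were seen. Slc7a13 stood at 4.10 and 3.26 in control, 9.51, 10.38 and 3.17 in Tln1 vehicle and 7.56, 9.00 and 3.08 in Tln1 VPA arrays. Slco1a1 stood at 3.56 and 2.66 in control, 8.25, 9.32 and 2.47 in Tln1 vehicle and 6.76, 7.69 and 2.68 in Tln1 VPA arrays. Kap stood at 9.63 and 7.87 in control, 12.59, 12.91 and 8.90 in Tln1 vehicle and 11.58, 12.40 and 7.70 in Tln1 VPA arrays. Slc7a13 is an amino acid carrier, Slco1a1 an organic anion carrier and Kap the kidney androgen regulated protein. All 3 were highest in Tln1 vehicle 1 and 2 and Tln1 VPA 1 and 2, the 4 arrays with the highest Y-linked means, and neither control array reached them. Xist stood at 9.66, 7.38, 10.14 and 9.97 in these 4 arrays and at 9.71 in control 1. The labels used here give no sex, and the part of sex in these levels was not tested.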
